A study of Mus musculus with 30 samples.

Results

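Oxidative phosphorylation (OXPHOS) is the final stage of respiration, in which electrons from nutrients pass along protein complexes of the inner mitochondrial membrane and the proton gradient they build drives ATP synthesis. Complex I and complex II feed electrons in, complex III and cytochrome c carry them on, complex IV passes them to oxygen, and complex V, the ATP synthase, makes ATP. Most subunits are encoded in the nucleus and imported, a smaller set is encoded in mitochondrial DNA, and assembly factors help to build the complexes. Activated T cells raise aerobic glycolysis and also enlarge their mitochondrial mass.

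The genes described here are the nuclear-encoded subunits and the assembly or accessory factors that share their name prefixes. They were chosen by symbol (Ndufa, Ndufb, Ndufc, Ndufs, Ndufv, Sdha to Sdhd with their assembly factors, Uqcr, Cox4 to Cox8, Atp5, Cyc1 and Cycs) among protein-coding genes with at least 10 counts in at least 5 columns of the table. Of 55573 genes in the table, 100 carried such a symbol and 93 passed the count minimum. The 93 members were 36 genes of complex I, 4 of complex II, 9 of complex III, 13 of complex IV, 16 of complex V, cytochrome c, and 14 assembly or accessory factors. The count minimum, which uses levels and not differences between groups, left out Cox4i2, Cox6a2, Cox7b2, Cox8b, Cox8c, Ndufa4l2 and a second entry named Atp5o. None of these 7 reached 10 counts in any column, and the highest total was 76 counts over 30 libraries, for Cox6a2. Closest above the minimum were Cox7a1 with 402 counts in all, Cox6b2 with 458 and Atp5l with 555.

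The study comprised 30 RNA-seq libraries, each from a culture that started as naive CD8+ T cells; their sources were lymph nodes and spleen of 8-week C57BL/6 mice, either wild type (WT) or Furin knockout (KO). FURIN is a proprotein convertase, and pro-TGFB1 is among its known substrates. Every culture, also those without cytokine, was stimulated for 3 days by plate-bound anti-CD3 and anti-CD28, both at 5 µg/ml, in X-VIVO 20, a medium without serum. One set of cultures received no cytokine, another 0.5 ng/ml of TGFB1, which restrains effector functions, and the last 10 ng/ml of IL12, which promotes them. Each of the 6 groups of genotype and cytokine had 5 libraries, 4 from females and 1 from a male. The labels do not say what drives the knockout or which part of Furin is missing. Libraries are named here by genotype, cytokine and the number in their title, which recurs in the 3 conditions of a genotype. Whether these numbers are single animals is not stated, so p-values measure only the spread between these samples, and the 3 libraries of a number count as separate samples.

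Library totals ran from 7306151 to 15502443 counts. Levels are given as CPM (counts-per-million of the library, after TMM scaling). Furin ranged from 28.85 to 38.61 CPM (WT) and 31.53 to 33.85 CPM (KO) without cytokine, from 74.12 to 93.59 and 66.01 to 90.5 CPM with TGFB1, and from 161.8 to 533 and 120.5 to 464.1 CPM with IL12. Its medians in WT and KO were 34.85 and 32.58 CPM without cytokine and 79.87 and 79.67 CPM with TGFB1. With IL12 they were 485.3 and 161.4 CPM. Counts were per gene and single exons of Furin were not examined, so the knockout itself was not tested. KO stands for the libraries labelled KO. Summed CPM of 7 CD8 T cell markers was 1830 to 4520 across libraries, 3090 to 4520 in WT and 2480 to 3200 in KO with TGFB1. Without cytokine, 1 of the 7 was lower in KO than in WT (median log2 fold change -0.061), against 1.02% of all genes tested. These counts are at an edgeR adjusted p below 0.05. With TGFB1, 5 of the 7 were lower in KO than in WT (median -0.495), against 17.3% of all genes. TGFB1 raised 5 in WT (median 0.52) and 2 in KO (median 0.032), against 19.2% and 13.5% of all genes. With IL12, 2 were lower in KO than in WT, against 4.01% of all genes. Of the 3 CD4 T cell markers, Cd4 did not exceed 2.37 CPM, while Cd40lg held 0.648 to 16.4 CPM and Zbtb7b 9.81 to 25 CPM. The B cell markers Ms4a1, Cd79a and Pax5 did not exceed 0.334 CPM, while Cd79b held 5.99 to 18.5 CPM and was lower in KO without cytokine (log2 fold change -0.67, edgeR adjusted p = 0.0361), with TGFB1 (-0.55, edgeR adjusted p = 0.0103) and with IL12 (-0.69, edgeR adjusted p = 0.0175). Summed markers of myeloid cells held 0.737 to 5.4 CPM and those of erythroid cells 0 to 2.32 CPM. The 5 NK markers, of which Eomes and Gzma are also made by activated CD8 T cells, summed to 31.3 to 72.6 CPM (WT) and 22.7 to 41.3 CPM (KO) with IL12, to 16.3 to 29.4 and 8.19 to 13.5 CPM without cytokine, and to 3.89 to 10.3 and 1.87 to 2.95 CPM with TGFB1. The part of such cells in the results was not tested. In bulk RNA fewer cells of a type and less RNA per cell cannot be told apart.

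WT libraries 72 and 75 with IL12 stood apart from the other libraries in a trend with gene length. The trend was measured per library as Spearman's rho, across the genes tested, between a gene's exonic length and the deviation of its log2 CPM from the mean of the 30 libraries. It was -0.296 in WT 72 and -0.343 in WT 75 with IL12, so that short transcripts were relatively high there, and the shortest quintile of genes lay above the longest by 0.37 and 0.47 on the log2 scale. Next in size were KO 73 with IL12 at 0.203, KO 63 with IL12 at 0.16 and WT 75 without cytokine at 0.156, while the remaining libraries lay between -0.108 and 0.128. OXPHOS transcripts are short: the members' median exonic length was 1789 bp against 4255 bp for all genes tested, 62 of 93 fell in the shortest quintile (up to 2213 bp) and only Ndufs1 in the longest (from 7399 bp). Comparisons that use the WT libraries with IL12 are therefore given with and without this pair. They also entered the other fits through the shared estimate of the spread.

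Promoters of OXPHOS genes are a textbook place for the factors NRF1 and GABPA, so stretches before the start site are shown for 6 of the members that the comparisons turn on, with motif letters in capitals. The sequences are from RefSeq on GRCm38.p6 and each ends at the base before the start that RefSeq gives, written 5′ to 3′ on the gene's strand. That start can differ from the one in the annotation used for lengths, and for Cox7a2l and Atp5k it lies within the gene as annotated there. Atp5k reaches base 108434448 in that annotation, so part of its stretch, with most of its capitals, lies within the annotated gene. Capitals mark GCGCATGC on either strand (the NRF1 core) in Cycs, Ndufaf4 and Atp5k, where the latter pair hold overlapping matches on both strands, CCGGAAG (the ETS family, which includes GABPA) in Ndufaf1, and GGGCGG (SP family) in Ndufaf4 and Cox7a2l. Ndufaf3 held none of the searched motifs in this stretch.
Cycs (chr6:50566570-50566689, minus strand): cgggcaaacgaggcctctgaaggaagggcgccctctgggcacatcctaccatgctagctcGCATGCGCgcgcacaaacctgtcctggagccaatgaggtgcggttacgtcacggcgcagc
Ndufaf1 (chr2:119662835-119662954, minus strand): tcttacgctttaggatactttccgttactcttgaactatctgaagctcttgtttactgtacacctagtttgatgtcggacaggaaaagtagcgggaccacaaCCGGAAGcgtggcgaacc
Ndufaf3 (chr9:108567437-108567556, minus strand): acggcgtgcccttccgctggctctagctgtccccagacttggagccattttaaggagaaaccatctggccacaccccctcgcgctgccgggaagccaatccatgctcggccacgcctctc
Ndufaf4 (chr4:24897963-24898082, plus strand): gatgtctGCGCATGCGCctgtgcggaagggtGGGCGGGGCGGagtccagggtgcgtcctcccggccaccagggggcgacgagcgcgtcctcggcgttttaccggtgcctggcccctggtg
Atp5k (chr5:108434400-108434519, minus strand): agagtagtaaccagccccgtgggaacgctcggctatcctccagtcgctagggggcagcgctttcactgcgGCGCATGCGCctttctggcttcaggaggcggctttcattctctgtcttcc
Cox7a2l (chr17:83514334-83514453, minus strand): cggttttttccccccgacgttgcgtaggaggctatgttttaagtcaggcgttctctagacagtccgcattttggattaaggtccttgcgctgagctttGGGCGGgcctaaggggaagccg

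Of the 93 members, 77 matched 1 promoter each in the table, a window of 250 bases before and 50 after the start. GCGCATGC was found on either strand in 13 of the 77 windows (16.9%), against 5.89% of 8805 windows of tested genes and 2.8% of all 27025 windows. CCGGAAG was found in 20 (26%) against 20.4% and 9.12%, and AAGATGGCG, the YY1 motif, in 7 (9.09%) against 3.65% and 1.49%. TCAAGGTCA, the ESRRA motif, was found in 2 (2.6%) against 0.284% and 0.407%. GGGCGG was found in 37 (48.1%) against 66.3% and 35.9%, and CACGTG, the E-box of MYC and its relatives, in 5 (6.49%) against 10.8% and 7.24%. These matches are letters in a window and not measured binding.

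Levels of the members differed widely when given per kilobase of exon. Subunits of the ATP synthase motor led, with Atp5b (beta subunit) at 695.8 and Atp5a1 (alpha subunit) at 604.9 mean CPM per kilobase over the 30 libraries. Cox4i1, a regulatory subunit of complex IV, followed at 455.5, and Cox8a at 446.8. The highest member of complex I was Ndufb6 at 220.4, in complex II Sdhd, a membrane anchor, at 241.3, and the Rieske protein Uqcrfs1 led complex III. Apart from Cox7a2l at 115.3, the assembly and accessory factors lay between 1.697 and 22.64 CPM per kilobase, below most subunits. The lowest member was Atp5l at 0.2894 CPM per kilobase, over 6443 bp of annotated exon. Its level is uncertain, and whether reads of this gene were lost in counting was not tested.

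**Figure D1:**
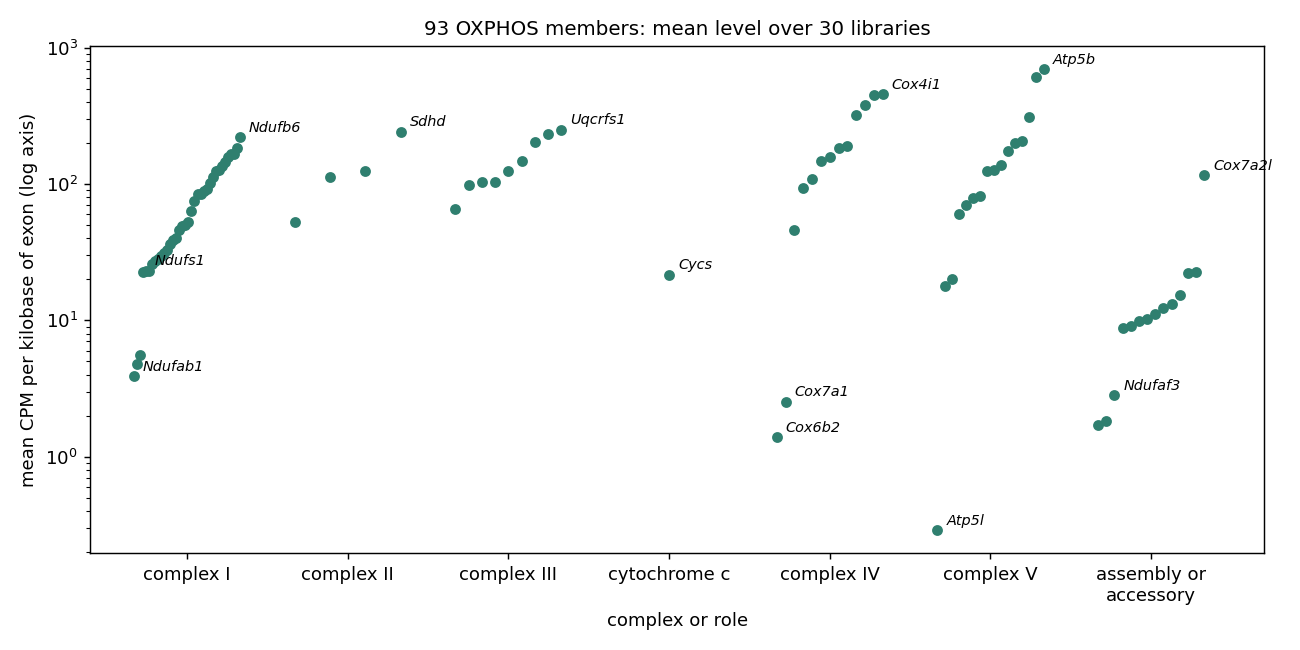
Mean level of each of the 93 members over 30 libraries, in CPM per kilobase of exon on a log axis, by complex or role, 1 point per gene. Atp5b is the highest at 695.8 and Atp5l the lowest at 0.2894, and Cox7a1 and Cox6b2 lie far below the other subunits of complex IV.

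In several isoform families 1 member carried nearly all of the signal. Cox4i1 averaged 706.1 CPM while Cox4i2 did not reach the minimum, Cox6a1 averaged 266 CPM and Cox6a2, the heart and muscle form, did not reach it, and the same held for Cox8a (276.5 CPM) against Cox8b and for Ndufa4 (261.8 CPM) against Ndufa4l2. Per kilobase, Cox6b1 held 322.1 CPM against 1.393 for Cox6b2, the testis form, and Cox7a2 held 184.2 against 2.526 for Cox7a1, the muscle form. Of the 3 genes for the c subunit of ATP synthase, whose mature proteins are identical, Atp5g3 held 308.8 CPM per kilobase, Atp5g1 20.12 and Atp5g2 17.89. In each pair Cox6b1 and Cox7a2 were the higher members in every library group, and Atp5g3 the highest of its family.

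Counting could be affected for some members by sequence shared with other genes. In the longest annotated transcript, 50-base stretches found in another gene's transcript on either strand made up 80.9% for Ndufaf2, 69% for Sdhaf1, 39.7% for Ndufs3, 37% for Ndufb4, 34.9% for Atp5o, 34.1% for Ndufb6 and 31.1% for Ndufs5. For Cycs the share was 28.5%, for Cox5b 25.9%, for Uqcrc2 24.8%, for Atp5h 23.8% and for Cox7a2l 17.7%. For Atp5l, the member with the lowest level, it was 7.49%, found in 640 other genes. Values of these genes are less certain, since the way reads matching several genes were counted is not given in the sources used here. Ndufaf1, Ndufaf3, Ndufaf4 and Ndufaf6 shared no such stretch.

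As a whole the members changed little between the 6 groups. The range of a member's group means had a median of 0.31 on the log2 scale, against 0.56 for all genes tested. It was below 0.5 for 79 of 93 members and above 1 for 3, namely Cox7a1 (1.48), Cox6b2 (1.43) and Ndufaf3 (1.28), against 21.8% of all genes above 1. Cycs (0.84), Ndufaf4 (0.83), Cox7a2l (0.81) and Ndufv3 (0.79) came next, and Atp5a1 was the steadiest at 0.12, with group means between 1829 ± 30.8 CPM (SD, n = 5; KO with TGFB1) and 1984 ± 52.3 CPM (KO without cytokine). Sdha and Cyc1, the heme c subunit of complex III, were called in none of the comparisons by edgeR (smallest adjusted p = 0.105 and 0.147), with group means of 433.2 to 492.8 CPM and 198 to 237.9 CPM.

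The share of all counts that fell on the members was close to 2% in every library. It averaged 1.88% ± 0.0443 (SD, n = 5) in WT and 1.88% ± 0.0262 in KO without cytokine, 1.84% ± 0.0355 and 1.83% ± 0.0321 with TGFB1, and 1.92% ± 0.161 and 1.78% ± 0.0569 with IL12. In WT with IL12 the 5 libraries held 1.8%, 1.81%, 1.82%, 2.04% and 2.15%, and the last pair were libraries 72 and 75. The other 3 of that group lay within the range of KO with IL12 (1.69% to 1.83%).

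**Figure D2:**
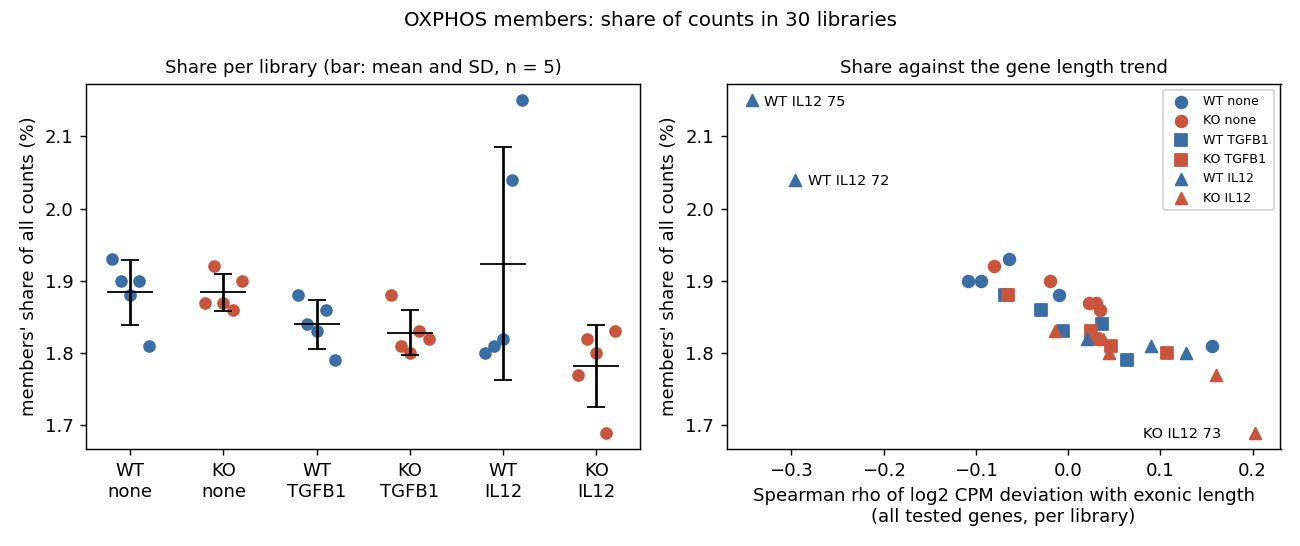
Left, the members' share of all counts per library in percent, by group, with mean and SD (n = 5). Right, the same share against each library's Spearman rho of log2 CPM deviation with exonic length: WT 75 and WT 72 with IL12 lie at the upper left (2.15% and 2.04%) and KO 73 with IL12 at the lower right (1.69%).

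Across the 30 libraries each member's log2 CPM was compared with the mean of the other members. The median Pearson correlation was 0.591, and 51 members exceeded 0.5. After the length trend was removed per library these fell to 0.346 and 25 members. Ndufb8, an accessory subunit of complex I, followed the others most closely (r = 0.916, and 0.851 after removal). Sdha, the flavoprotein of complex II, ran against them (r = -0.589, and -0.412 after removal). With IL12 Sdha held 515.8, 440.4, 446.8, 409.4 and 353.5 CPM in WT 62, 67, 71, 72 and 75, so it was lowest in the libraries where Ndufb8 was highest (134.8 and 150.7 CPM in 72 and 75, against 106.1 to 110.3). The genes outside the rule whose log2 CPM followed the mean of the members most closely over the 30 libraries were Rpl27 (r = 0.882), Psmb3 (0.871), Snrpg (0.856), Swi5 (0.851), Atp6v1f (0.844), Tmem256 (0.84), Rps25 (0.837), Arpp19 (0.837), Serf2 (0.831) and Hint1 (0.83). All genes were measured in the same libraries, which differ in depth and length trend, so the correlations are given as a description.

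Tests were run with edgeR over all 11718 genes tested, and a member is called higher or lower where its adjusted p is below 0.05. In the absence of cytokine, no member differed between KO and WT. The smallest adjusted p among members was 0.112 by edgeR, 7 of 93 had an unadjusted p below 0.05, and DESeq2 and limma-voom called 0 as well. The share of all genes with an unadjusted p below 0.05 was not computed, here or in later comparisons. Counts of members at that cutoff therefore have no share to be read against. Over all genes tested 1.08% were called higher and 1.02% lower. The median log2 fold change of the members was 0.003, with quartiles at -0.067 and 0.068. The members of complex III had a median of 0.086 and those of complex I of -0.032. Only fits on these 2 groups alone (3 members called) or without KO 73 of the cultures without cytokine (1 member called) gave any call.

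**Figure D3:**
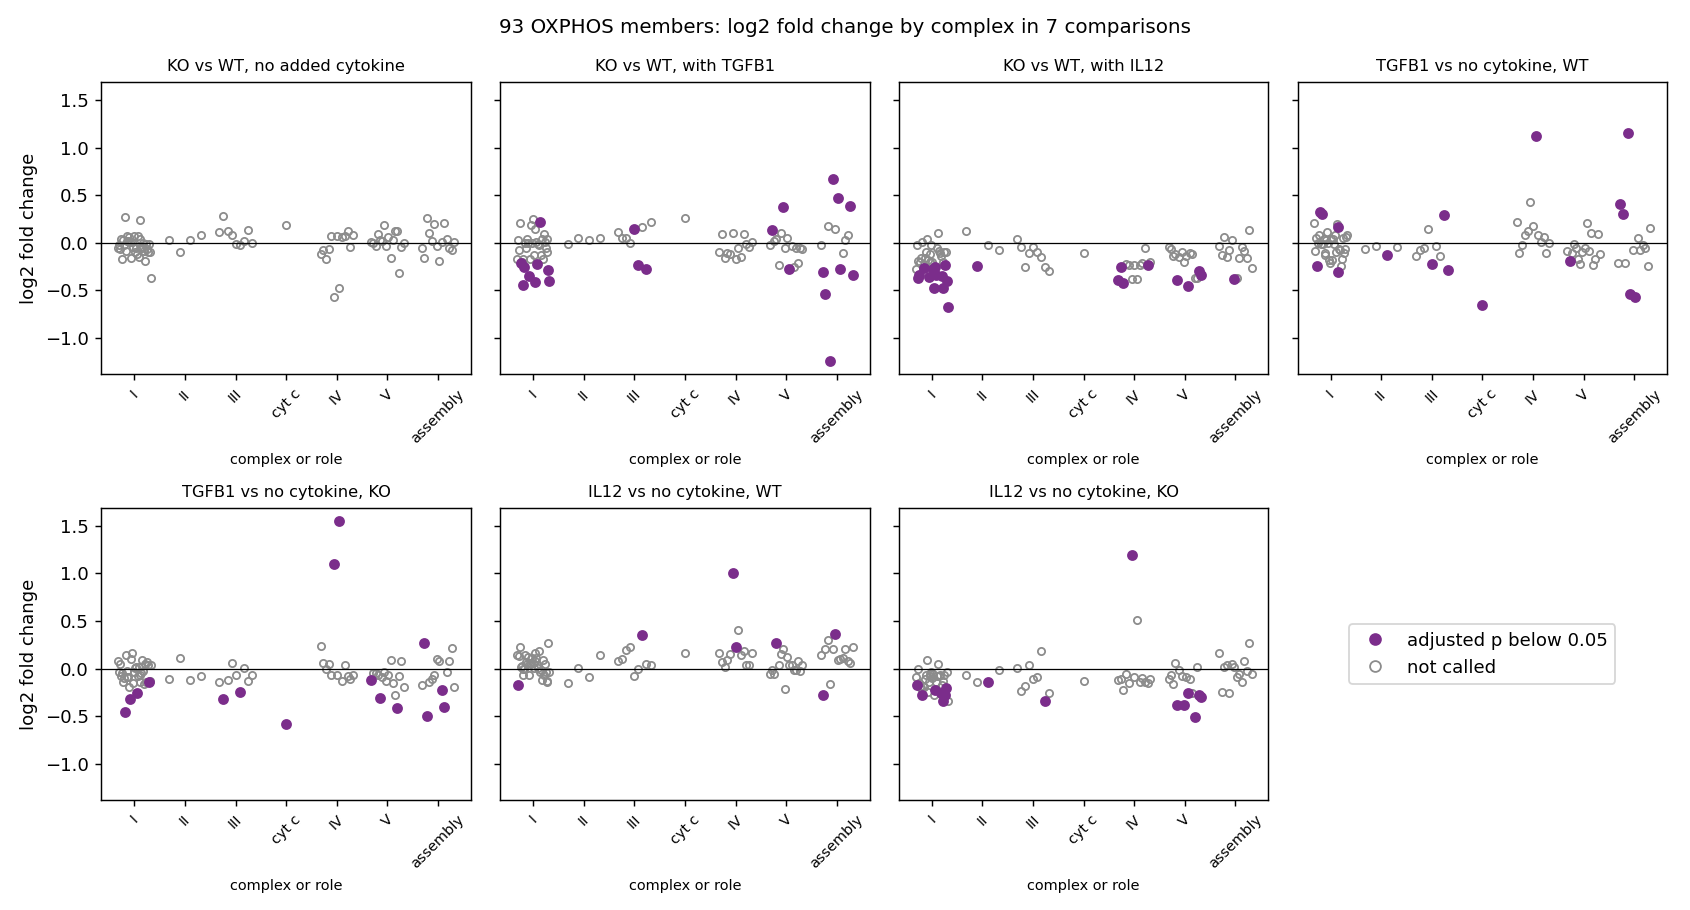
Log2 fold change of each of the 93 members (points, grouped by complex or role) in the 7 comparisons between 2 groups; filled points are called at an edgeR adjusted p below 0.05. No point is filled for KO against WT without cytokine, points of both signs are filled with TGFB1, and all 23 filled points for KO against WT with IL12 lie below 0.

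TGFB1 moved single members of the set rather than the whole. In WT cells 8 of 93 members rose and 9 fell, while 19.2% of all genes tested were called higher and 18.6% lower. In KO cells 3 rose and 13 fell, while 13.5% and 11% of all genes were called. The median over the members was -0.046 in WT and -0.071 in KO, against 0.016 and 0.007 over all genes. Spearman's rho between fold change and exonic length was -0.327 across the members in WT, against 0.0272 over all genes. In KO it was -0.0402 against 0.0369. The reason was not tested. Fewer members were called in WT without library 67, 71 or 75 with TGFB1 (11 each), and in KO without KO 68 or 74 in the absence of cytokine (9 and 10) or KO 70 or 73 with TGFB1 (10 and 9). With the length trend removed 26 were called in WT, and 28 without the 5 libraries whose length trend exceeded 0.15 in size. The shares of all genes above are from the main fit. Where the count of an alternative fit stands without a share, here or below, there is none to read it against.

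Cycs, the electron carrier that also triggers caspase activation when released, fell with TGFB1 in both genotypes. In WT it held 84.97, 86.97, 67.84, 71.54 and 74.13 CPM without cytokine and 57.68, 49.31, 41.84, 49.04 and 48.24 CPM with TGFB1. In KO the values were 88.21, 87.77, 87.48, 82.38 and 94.09 CPM without and 55.72, 72.27, 54.04, 48.79 and 63.72 CPM with TGFB1. Every library with TGFB1 lay below every library without it in the same genotype. The log2 fold change was -0.65 ± 0.11 SE in WT (edgeR adjusted p = 5e-05) and -0.58 ± 0.11 in KO (edgeR adjusted p = 0.000165), and the call was kept in all alternatives run. The difference between the genotypes in this response was 0.07 and was not called.

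Assembly factors of complex I were called in both directions. Ndufaf3, an early assembly factor, held 2.78, 5.449, 5.3, 3.948 and 4.654 CPM in WT without cytokine and 3.92, 11.8, 13.42, 8.063 and 12.11 CPM with TGFB1. In KO with TGFB1 it held 5.586, 2.589, 4.157, 5.59 and 3.038 CPM, near its level without cytokine. WT 62 with TGFB1 lay among the libraries without cytokine, while the other 4 of its group lay above all of them and above all KO libraries. Ndufaf3 thus rose with TGFB1 in WT by 1.16 ± 0.25 SE (edgeR adjusted p = 0.000827), and with TGFB1 it was lower in KO than in WT by a log2 fold change of -1.24 ± 0.25 (edgeR adjusted p = 0.000764). These comparisons share the WT libraries with TGFB1.

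Ndufaf1, a chaperone of the complex I membrane arm, responded differently to TGFB1 in the genotypes. It held 17.02, 18.92, 16.37, 13.88 and 17.48 CPM in WT without cytokine and 15.34, 21.94, 21.98, 20.87 and 22.97 CPM with TGFB1. In KO it held 20.65, 23.27, 18.74, 19.54 and 17.88 CPM without cytokine and 12.9, 14.24, 15.17, 15.25 and 13.44 CPM with TGFB1. All KO libraries with TGFB1 lay below all KO libraries without it and below all WT libraries with it, while the WT groups overlapped through library 62. The log2 fold change with TGFB1 was 0.30 ± 0.11 SE in WT (edgeR adjusted p = 0.0263) and -0.49 ± 0.11 in KO (edgeR adjusted p = 0.00109). The call in WT was lost in 4 of the 30 fits that left out a library and in 2 of the 12 other alternatives (highest edgeR adjusted p = 0.0998), and that in KO in none. The difference between the genotypes, -0.80 ± 0.15 SE, was called (edgeR adjusted p = 0.0126), and it was called in all alternatives run.

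Ndufaf4 and Ndufaf6, further assembly factors of complex I, went the other way. With TGFB1, the WT values of Ndufaf4 were 45.25, 23.01, 21.8, 29.88 and 23.64 CPM and the KO values 39.76, 52.64, 40.11, 32.87 and 62.15 CPM. Without cytokine it ranged from 33.1 to 46.36 CPM (WT) and from 43.17 to 53.64 CPM (KO). The WT values of Ndufaf6 with TGFB1 were 30.47, 14.16, 20.3, 23.81 and 16.14 CPM and the KO values 31.25, 26.86, 27.12, 28.99 and 31.21 CPM. For both genes WT 62 lay among the KO libraries and the other 4 WT libraries below all KO libraries. With TGFB1 in WT the log2 fold change of Ndufaf4 was -0.54 ± 0.17 SE (edgeR adjusted p = 0.0114) and that of Ndufaf6 -0.57 ± 0.14 (edgeR adjusted p = 0.00274). With TGFB1 both were higher in KO than in WT, by 0.67 ± 0.17 (edgeR adjusted p = 0.00311) and 0.47 ± 0.14 (edgeR adjusted p = 0.0126).

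**Figure D4:**
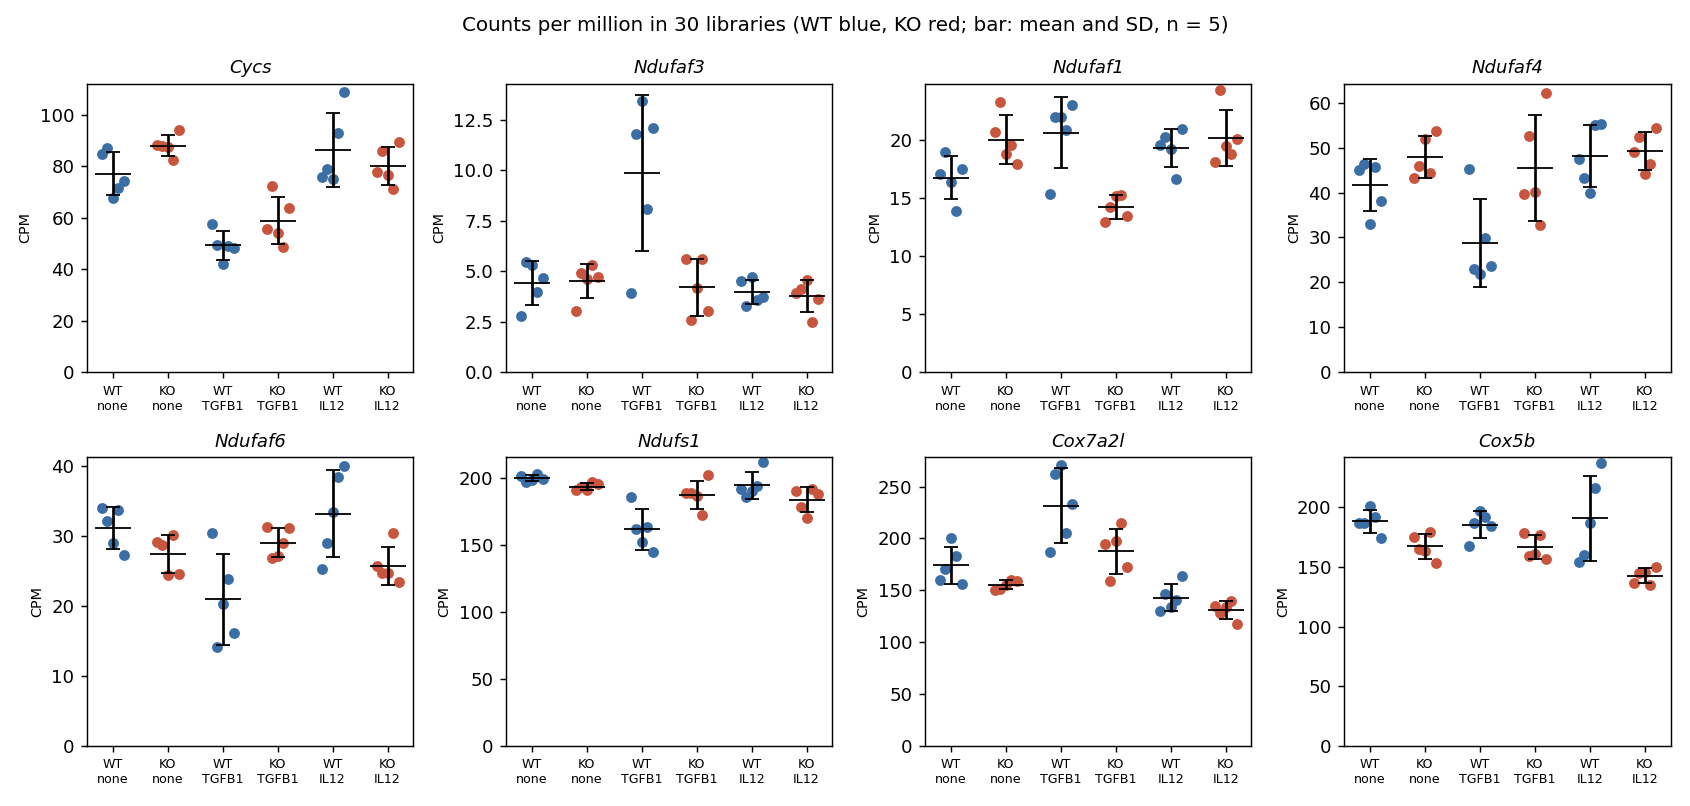
CPM of 8 members in each library, by group (WT blue, KO red), with mean and SD (n = 5). Cycs is lower with TGFB1 in both genotypes, 4 of the 5 WT libraries with TGFB1 lie above all others in Ndufaf3, and Cox5b in WT with IL12 spreads from 153.9 to 236.9 CPM.

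Subunits of the complexes were called as well. Ndufs1, the largest core subunit of complex I, held 197 to 203.3 CPM in WT without cytokine and 186.2, 161.9, 152.1, 163.2 and 145 CPM with TGFB1, with no overlap, and fell by 0.31 on the log2 scale (SE 0.06, edgeR adjusted p = 0.000168). Uqcrc1, a core protein of complex III, fell by 0.22 (edgeR adjusted p = 0.00141), and Atp5b fell by 0.19 (edgeR adjusted p = 0.0029), each without overlap. Ndufa6, a small subunit of complex I, rose by 0.31 and was called in all alternatives run. Ndufa3, another, rose by 0.32, with the call lost in 7 of 30 left-out fits and 4 of 12 others. Uqcrh, the hinge protein of complex III, rose by 0.29, and Uqcrq fell by 0.28. In KO the members that fell included Ndufa5 (log2 fold change -0.46), Atp5k (-0.41), which encodes a small subunit of ATP synthase, Ndufaf8 (-0.40), Ndufb10 (-0.32) and Atp5e (-0.31), each with no overlap between the groups. Overlap was not computed over all genes tested.

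Cox7a2l, counted here among the accessory factors, rose with TGFB1 in both genotypes and was called lower with IL12 in WT only. It held 160, 170.1, 200.7, 182.7 and 156.5 CPM in WT without cytokine, 186.6, 262.5, 270.5, 204.9 and 233.4 CPM with TGFB1, and 130, 146.5, 134.3, 140.2 and 164 CPM with IL12. The log2 fold change was 0.41 ± 0.09 SE with TGFB1 (edgeR adjusted p = 0.001) and -0.28 ± 0.09 with IL12 (edgeR adjusted p = 0.0306) in WT, and with TGFB1 in KO it was 0.27 ± 0.09 (edgeR adjusted p = 0.0302). Neighbouring groups overlapped in each case. Without WT 72 and 75 the value with IL12 in WT was -0.35 (edgeR adjusted p = 0.0461).

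The muscle form Cox7a1 was called higher with TGFB1 at very low levels. It held 0.6673 to 1.675 CPM in WT without cytokine and 1.589 to 2.656 CPM with TGFB1, and in KO 0.5218 to 0.8637 and 1.294 to 2.39 CPM. The KO groups did not overlap, and the WT groups overlapped through 1 library, WT 72 without cytokine. The log2 fold change was 1.12 ± 0.33 SE in WT (edgeR adjusted p = 0.0088) and 1.55 ± 0.35 in KO (edgeR adjusted p = 0.0014). Cox6b2 was called higher in KO with TGFB1 (1.10 ± 0.31, edgeR adjusted p = 0.00914), and with IL12 in both genotypes, by 1.00 ± 0.28 in WT (edgeR adjusted p = 0.0131) and 1.19 ± 0.30 in KO (edgeR adjusted p = 0.00666), with at most 3.108 CPM in any library. Without WT 72 and 75 with IL12 the value in WT was 0.88 (edgeR adjusted p = 0.109).

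With TGFB1 present, KO cells differed from WT cells in 23 members, 7 higher and 16 lower, while 18.3% of all genes were called higher and 17.3% lower. The median over the members was -0.021, against -0.006 over all genes. Spearman's rho between fold change and exonic length was 0.214 across the members, against 0.0232 over all genes. Of the 14 assembly and accessory factors 3 were higher (Ndufaf4, Ndufaf6 and Sdhaf3, the last by 0.39) and 5 lower (Ndufaf3, Ndufaf1, Sdhaf4, Cox7a2l and Ndufaf7). Of the 36 complex I subunits 8 were lower, among them Ndufa3 (-0.44), Ndufb7 (-0.41), Ndufv3 (-0.40) and Ndufb10 (-0.35), and Ndufs1 was higher (0.22). Atp5g1, Uqcrc1 and Atp5b were higher by 0.38, 0.14 and 0.13, and no member of complex II or IV was called. The groups did not overlap for the called members Ndufaf1, Ndufv2 and Atp5h. Overlap was not computed over all genes tested, so there is no share to read this against. Calls numbered 12 without KO 68, KO 74 or WT 67, 13 without WT 71, and 12 in a fit on these 2 groups alone. Without the 5 libraries with the largest length trends there were 35. No share of all genes is given for these fits.

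WT 62 with TGFB1, the male of its group, lay nearest to the KO libraries in several of these genes, and without it the genotypes differed more. The library was singled out by these same values, so the larger difference without it is no separate evidence. The difference of the TGFB1 response between the genotypes was called for 1 member with all libraries, Ndufaf1, while 1.61% of all genes were called higher and 1.69% lower. Without WT 62 it was called for 11 members, named here after their values were seen, while in that fit 10.3% of all genes were called higher and 7.85% lower. Of the members 3 were called higher and 8 lower. In KO relative to WT the response was lower for Ndufaf3 (-1.46), Ndufaf1 (-0.88), Ndufa3 (-0.53), Uqcrh (-0.48), Ndufb10 (-0.44), Atp5j2 (-0.43), Ndufa5 (-0.41) and Ndufaf7 (-0.33), and higher for Ndufaf6 (0.83), Ndufaf4 (0.69) and Ndufs1 (0.32). KO 63, the male of the KO group, was retained in that fit, and a term for sex with all libraries left 2 calls. The number of calls was also raised by leaving out WT 75 with IL12 (5 calls), WT 72 with TGFB1 (4), KO 73 with IL12 or with TGFB1 (3 each), or KO 63 without cytokine, KO 73 without cytokine, KO 63 with TGFB1 or WT 71 without cytokine (2 each).

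Other mitochondrial genes were examined as lists named by function, to be read against the shares of all genes called with TGFB1: 19.2% higher and 18.6% lower in WT, 13.5% and 11% in KO, and 18.3% and 17.3% for KO against WT. Of 18 measured genes of the import channels and matrix chaperones 11 fell with TGFB1 in WT (median -0.36) and none rose, 4 fell in KO (median -0.16), and with TGFB1 13 were higher in KO than in WT (median 0.39). Hspa9, the mitochondrial HSP70, fell by 0.66 in WT (SE 0.13, edgeR adjusted p = 0.00035), and Tomm70a, an outer membrane receptor, fell by 0.41 (SE 0.08, edgeR adjusted p = 0.000296). Of 18 genes of the citric acid cycle and the pyruvate dehydrogenase complex 11 fell and 2 rose with TGFB1 in WT, among them Idh3a (-0.50) and Cs (-0.25). In KO 2 fell (Fh1 and Suclg1) and 1 rose (Pdha1, by 0.49). Whether these lists differ from the OXPHOS members was not tested.

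Of 77 mitochondrial ribosomal protein genes 26 fell and 5 rose with TGFB1 in WT, 10 fell and 2 rose in KO, and 24 were higher and 8 lower in KO than in WT with TGFB1. Among 37 assembly factors outside the rule 13 fell and 6 rose with TGFB1 in WT, with Uqcc3, a complex III factor, rising by 1.25 ± 0.18 SE (edgeR adjusted p = 1.14e-05) and Cox18 falling (-0.61). In KO 4 of them fell. Of 15 regulators of mitochondrial biogenesis, Myc fell by 1.06 in WT (SE 0.19, edgeR adjusted p = 0.000152), and Tfam, which packages mitochondrial DNA, Twnk and Pprc1 fell while Polg rose. Esrra, Myc, Twnk and Pprc1 were higher in KO than in WT with TGFB1. None of the 7 measured subunits encoded in mitochondrial DNA was called with TGFB1 in either genotype, with medians of 0.31 in WT and -0.39 in KO.

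With IL12 present, KO cells read lower than WT cells in 23 members and higher in none, while 4.01% of all genes were called lower and 2.76% higher. The median over the members was -0.181, against 0 over all genes. The 23 were 13 of complex I, 4 of complex IV (Cox5b, Cox4i1, Cox5a and Cox8a), 4 of complex V, Sdhb and Ndufaf5. This rested on 2 WT libraries: without WT 72 and 75 no member was called (edgeR, smallest adjusted p = 0.134, 12 members with an unadjusted p below 0.05) and the median was -0.044. In that fit only 0.0168% of all genes were called lower and 0.0503% higher. Without all 5 libraries with the largest length trends the median was 0.007 and no member was called (7 with an unadjusted p below 0.05), with the length trend removed in every library 15 were called and the median was -0.081, and in a fit on these 2 groups alone none was called. Single libraries moved the count to 5 (without WT 75), 7 (WT 72), 12 (KO 68), 13 (KO 70) and 39 (WT 62). No share of all genes is given for these single-library fits.

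In single genes the size of the difference also fell. Cox5b, a subunit of complex IV, held 153.9, 160, 187.2, 216.6 and 236.9 CPM in WT 62, 67, 71, 72 and 75 and 135.3 to 150.2 CPM in KO, a log2 fold change of -0.42 ± 0.08 SE (edgeR adjusted p = 0.00477), and -0.22 ± 0.07 without WT 72 and 75 (edgeR adjusted p = 0.183). Atp5h, a stalk subunit of ATP synthase, held 221.9, 227, 257.3, 321.9 and 340.3 CPM in WT, against 196.7 to 201.7 CPM for KO, a log2 fold change of -0.46 ± 0.09 SE (edgeR adjusted p = 0.00436), and -0.23 ± 0.07 without them (edgeR adjusted p = 0.16). In both genes WT 72 and 75 were the highest, and the KO libraries lay below every WT library. Overlap was not computed over all genes tested, so there is no share to read this against.

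Ndufv3, an accessory subunit of the NADH-binding module, differed most, at 74.61, 76.65, 107.3, 114.4 and 112 CPM in WT with IL12, against 53.11 to 67.31 CPM for KO. Its log2 fold change was -0.67 ± 0.15 SE (edgeR adjusted p = 0.00821) and -0.50 ± 0.16 without WT 72 and 75 (edgeR adjusted p = 0.193). Ndufv3 was also called lower in KO with TGFB1 (-0.40 ± 0.15, edgeR adjusted p = 0.0316), at 62.89 to 101 CPM against 86.24 to 117.1 CPM in WT, where the groups overlapped. Cox4i1 held 604.1, 631.6, 724.9, 922.9 and 972.1 CPM in WT with IL12, against 569.3 to 626.7 CPM for KO, and its fold change went from -0.40 (edgeR adjusted p = 0.0118) to -0.15 (edgeR adjusted p = 0.368) without WT 72 and 75.

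**Figure D5:**
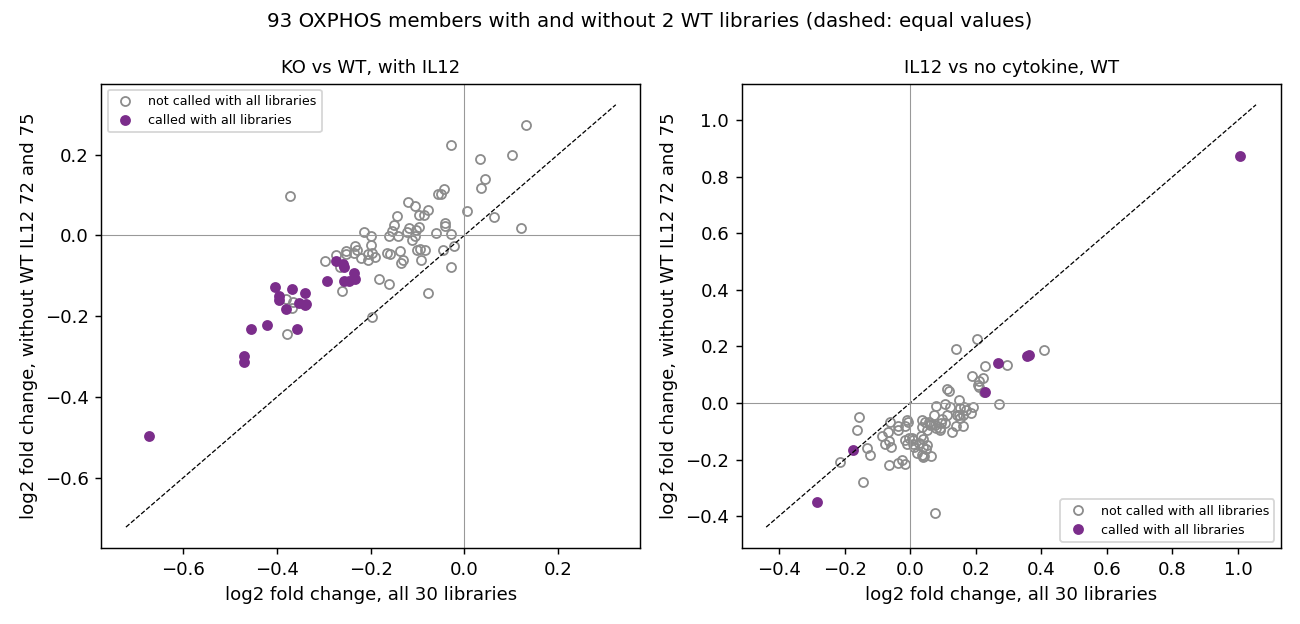
Log2 fold change of the 93 members with all 30 libraries (x axis) against the fit without WT 72 and 75 with IL12 (y axis), for KO against WT with IL12 (left) and IL12 against no cytokine in WT (right); the dashed line marks equal values. Most points lie above the line on the left and below it on the right, and the medians go from -0.181 to -0.044 and from 0.063 to -0.079.

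In WT cells IL12 changed few members. With all libraries 5 rose and 2 fell (10.5% and 8.3% of all genes were called), with a median of 0.063. Uqcrfs1 rose from 294.6 to 344.8 CPM without cytokine to 352.1, 348.2, 378.6, 461 and 502.8 CPM, with no overlap (log2 fold change 0.36 ± 0.09 SE, edgeR adjusted p = 0.00847). Ndufaf5 (0.36), Atp5d (0.27), Cox6c (0.23) and Cox6b2 also rose, and Cox7a2l and Ndufa10 (-0.18) fell. Without WT 72 and 75 (4.2% and 2.13% of all genes called higher and lower) none rose, Cox7a2l and Ndufs8 (-0.28) fell, the median was -0.079, and Uqcrfs1 stood at 0.17 ± 0.09 (edgeR adjusted p = 0.293). Counts were 3 without either of these libraries singly, 4 without WT 72 in the absence of cytokine, 12 without WT 67 and 14 without WT 62 with IL12, and 1 in a fit on these 2 groups alone.

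In KO cells 15 members fell with IL12 and 1 rose, Cox6b2, while 5.74% of all genes were called lower and 8.49% higher. The median was -0.109 against 0 over all genes. Complex V and complex I held most of them: 6 of 16 members of complex V fell (Atp5k, Atp5e, Atp5g2, Atp5o, Atp5mpl and Atp5h) and 7 of 36 of complex I (among them Ndufs5, Ndufs8, Ndufs3 and Ndufv1), with Sdhc and Uqcrh. Atp5k held 151.6, 158.9, 148, 138.6 and 126.7 CPM without cytokine and 94.5, 112.3, 119.5, 74.4 and 106.8 CPM with IL12, with no overlap and a log2 fold change of -0.51 ± 0.12 SE (edgeR adjusted p = 0.00324). In WT with IL12 it held 103.2, 113.6, 126.1, 150.4 and 160.8 CPM, overlapping both. KO 73, the lowest library for Atp5k, also had the third largest length trend. Without KO 73 the count was 9 and without KO 74 it was 10. Without the 5 libraries with the largest trends it was 12 (11 lower), and with the trend removed 19 (17 lower). Without WT 72 and 75 with IL12 it was 25 (1 higher and 24 lower, against 9.78% and 7.23% of all genes). In a fit on these 2 groups alone it was 28. Apart from the fit without WT 72 and 75, no share of all genes is given for these counts.

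The difference of the IL12 response between the genotypes was called by edgeR for 0 members and for 0% of all genes in either direction. DESeq2 called 0 members. An unadjusted p below 0.05 was held by 26 members, and the share of all genes at that cutoff was not computed. The median of this difference over the members was -0.18 with all libraries. It was -0.046 without WT 72 and 75, where no member had an unadjusted p below 0.05, and 0.002 without the 5 libraries with the largest trends.

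Cytosolic ribosomal protein genes, another group of short and abundant transcripts, moved alongside the members with IL12. Of 76 measured, 58 were lower in KO than in WT with IL12 (median -0.31) and 56 fell with IL12 in KO (median -0.30), while 1 rose and 1 fell with IL12 in WT. Over all genes tested, 4.01% were called lower in KO than in WT with IL12. For IL12 against no cytokine, 5.74% were called lower in KO, and 10.5% higher and 8.3% lower in WT. Without WT 72 and 75 none of the 76 differed between KO and WT (median -0.13), 69 fell with IL12 in KO (median -0.30), and 19 fell with IL12 in WT (median -0.19). In that fit 0.0168% (KO against WT), 7.23% (IL12 in KO) and 2.13% (IL12 in WT) of all genes were called lower. The ribosomal protein genes' share of all counts was 8.51% to 11.5% in WT and 7.57% to 8.66% in KO with IL12. The 7 measured subunits encoded in mitochondrial DNA had a median log2 fold change of 0.69 with IL12 in KO, where mt-Nd4, mt-Nd5 and mt-Cytb were called higher, by 0.96, 0.86 and 0.81 (edgeR adjusted p = 0.0139, 0.0288 and 0.0221). Over all genes 8.49% were called higher with IL12 in KO. Without WT 72 and 75, 3 of the 7 subunits were called in KO, with a median of 0.69 as well. In WT their median with IL12 was 0.475 with all libraries and 0.661 without WT 72 and 75, with 0 called in either fit. The difference of the IL12 response between the genotypes was called for 0 of the 7 subunits (median 0.271). Their share of all counts spread from 0.711% to 1.69% in KO and from 0.582% to 1.37% in WT with IL12. Libraries were made from poly(A) RNA, which captures mitochondrial transcripts incompletely.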

How the data were processed

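The table held whole-number counts per gene and library, as deposited by the authors. Per the labels' protocols, libraries were made from poly(A) RNA with a directional kit. The submitters' processing notes name FastQC, Trim Galore, STAR, DESeq2 1.24.0 and GRCm38. Which counter, strand option and gene annotation were used is not given in the sources used here, so overlapping and antisense genes are less certain. Symbols and exon lengths came from GENCODE on GRCm38.

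Genes were filtered with filterByExpr (minimum count 10), which left 11718 genes with 99.88% of counts. All 30 libraries entered 1 quasi-likelihood fit in edgeR 4.0.16 (R 4.3.3) with TMM scaling and a mean per group. P-values were adjusted by Benjamini-Hochberg over all genes tested, and SE is the fold change divided by the square root of F. The script was tested on simulated data. The genes named were fixed reference subunits of each complex, isoform families, up to 8 rises and 8 falls per comparison by fold change among called members of at least 4 CPM, and members whose response was called to differ; other names in the text were added after their values were seen. Members and lists were chosen with earlier results of these data known. DESeq2 1.42.0, limma-voom (limma 3.58.1), filters, thinning, a term for sex and left-out libraries were alternatives. The 2 alternatives that leave out libraries by their length trend, and the lists and members without WT 62, were added after the data were seen.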

Additional observations from a re-analysis of the deposited data

Results flagged for a closer look

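Within-group spread was examined for 16 members in the 6 groups, 96 groups of 5 libraries in all, and 5 of these held a library far from the rest, by Dixon's ratio of the gap next to it over the range of the group. Chance flags about 1 in 20 such groups. Uqcrc2 stood at 293.1 CPM in KO 68 without cytokine against 263.7 to 271.2 CPM in the other libraries, and at 331.9 CPM in WT 75 with IL12 against 251.4 to 271.3 CPM. Atp5a1 stood at 1883 CPM in KO 63 with TGFB1 against 1809 to 1823 CPM. In KO 74 with IL12, Sdha was at 413.7 CPM against 474.6 to 493 CPM and Cox4i1 at 626.7 CPM against 569.3 to 584.7 CPM.

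The response of Ndufaf1 to TGFB1 differed between the genotypes by -0.795 on the log2 scale (KO minus WT), tested as an interaction across all genes (edgeR adjusted p = 0.0126).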

How the results depend on the processing

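Over the fold changes of named members in 42 alternatives, 7108 values kept their direction and side of the threshold, 307 lost the call, 61 gained one and 0 reversed. The main counts were 0, 23 and 23 members for KO against WT without cytokine, with TGFB1 and with IL12, 17 and 16 for TGFB1 in WT and KO, 7 and 16 for IL12 in WT and KO, and 1 and 0 for the differences of the TGFB1 and IL12 responses. Without a filter on low counts 14 (KO against WT, TGFB1), 14 (KO against WT, IL12), 10 (TGFB1 in KO), 3 (IL12 in WT) and 8 (IL12 in KO) were called. Fits on the compared groups alone called 3 (KO against WT, no cytokine), 12 (TGFB1), 0 (IL12), 1 (IL12 in WT) and 28 (IL12 in KO). Removal of the length trend gave 15 (KO against WT, IL12) and 26 (TGFB1 in WT). Without WT 72 and 75 with IL12 there were 0 (KO against WT, IL12), 2 (IL12 in WT) and 25 (IL12 in KO), and without the 5 libraries of the largest length trend 35 (KO against WT, TGFB1), 0 (IL12) and 28 (TGFB1 in WT). The difference of the TGFB1 response was called for 3 members with a stricter filter, 2 with a term for sex, 4 with the length trend removed, 2 after thinning, 3 in the compared groups alone, 2 by limma-voom, 5 by DESeq2, 6 without WT 72 and 75 and 2 without the 5 libraries. The cause was not tested, and these counts stand without the share of all genes called in the same fit.

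With single libraries left out, counts ran from 0 to 1, 12 to 30 and 5 to 39 for KO against WT without cytokine, with TGFB1 and with IL12, from 11 to 23 and 9 to 20 for TGFB1 in WT and KO, from 3 to 14 and 9 to 22 for IL12 in WT and KO, and from 1 to 11 and 0 to 0 for the differences of the TGFB1 and IL12 responses.

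After each group's mean was subtracted, same-numbered libraries correlated with a median of 0.222 (lowest -0.0339, highest 0.43) over 30 pairs, 26 of them above 0.1. Against other numbers in the other groups of the same genotype, 26 of 30 libraries were closest to their own number. Most libraries thus resembled their own number, but no label ties a number to an animal. The fit without the number was kept, and a block by number is given beside it. With the replicate number as a block, in place of the unpaired fit, 4 members were called for the difference of the TGFB1 response, and 0, 22, 20, 19, 17, 9, 20 and 0 for the other comparisons in the order of the main counts.

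Against counts without mitochondrial transcripts and cytosolic ribosomal protein genes, the members' share was 2.11% and 2.11% in WT and KO without cytokine, 2.1% and 2.06% with TGFB1 and 2.16% and 1.97% with IL12. Depth is lowest for Cox7a1, Cox6b2, Atp5l, Atp5s and Ndufaf3, with means of 1.35, 1.54, 1.86, 3.74 and 5.12 CPM.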
